A study of Rattus norvegicus with 9 samples.

Results

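The ephrin-B and EphB genes are 8 of the 32883 genes in the deposited matrices, and were taken as every row with the symbol *Efnb1*, *Efnb2*, *Efnb3*, *Ephb1*, *Ephb2*, *Ephb3*, *Ephb4* or *Ephb6*. They comprise 3 ligands and 5 receptors, and each symbol matched 1 row. RNA was measured in 9 libraries of wild-type (WT) rat fibroblasts (Fb), 3 from the epineurium of the sciatic nerve (Fb-Epn), 3 from the nerve parenchyma inside it (Fb-Par) and 3 from abdominal skin (Fb-Skn). The nerve-derived types came from 2 male Lewis rats and Fb-Skn from 1 other male, all 10 weeks old. All cells were dissociated with collagenase and trypsin, grown in serum-containing medium and passaged 1 time before RNA extraction. With so few rats, no type can have 3 independent animals behind its samples, so the SDs and p-values below measure the spread between samples, which may be technical, and tissue, rat and body site cannot be told apart between nerve and skin.

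Ephrin-B ligands are transmembrane proteins that bind EphB receptor tyrosine kinases on a neighbouring cell. Binding signals into the receptor-bearing cell (forward signalling) and, through the ligand's cytoplasmic tail, into the ligand-bearing cell (reverse signalling), and the usual outcomes are repulsion, adhesion or sorting of cells and guidance of axons. In injured peripheral nerve, contact between fibroblasts and Schwann cells through ephrin-B and EphB2 is known for gathering Schwann cells into cords across the wound. The study asked what nerve-derived and skin-derived fibroblasts express that could act on neurites, and the comparisons here were Fb-Epn against Fb-Skn, Fb-Epn against Fb-Par and Fb-Par against Fb-Skn, which share their libraries with each other.

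The levels are TPM values as deposited (transcripts per kilobase, rescaled to a fixed total), a unit per gene length, so that different genes can be compared within a library. Differences between types were tested on the deposited counts with edgeR's quasi-likelihood test, and a call is a Benjamini-Hochberg adjusted p under 0.01 over the 13273 genes tested. For a DE gene the log2 fold change had in addition to lie beyond 2 or -2. Libraries held 10084584 to 12310506 counts, and edgeR's common dispersion corresponds to a coefficient of variation of 8.25% within a type. All pairs of libraries of a type differed by more than sampling noise. Enough counts to be tested were found for 6 members, and *Efnb3* and *Ephb1* fell below edgeR's expression filter.

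The sequences just upstream of 3 members are shown because *Efnb2* was the ligand with the largest difference between types, and *Ephb3* and *Ephb4* are the receptors that ran in opposite order across the types. Each is the 250 bases before the RefSeq gene start in assembly GRCr8, which is not the build of the deposited files, and RefSeq entries were matched for 7 of the 8 members. The windows lie at chr16:87484965-87485214 on the plus strand (*Efnb2*), chr11:93363776-93364025 on the minus strand (*Ephb3*) and chr12:24988389-24988638 on the minus strand (*Ephb4*). They are written 5′ to 3′ along the gene, and capitals mark matches on either strand to GGGCGG (the GC box), CCAAT (the CCAAT box), TATAAA (the TATA box) and TGANTCA (the AP-1 motif).
Efnb2: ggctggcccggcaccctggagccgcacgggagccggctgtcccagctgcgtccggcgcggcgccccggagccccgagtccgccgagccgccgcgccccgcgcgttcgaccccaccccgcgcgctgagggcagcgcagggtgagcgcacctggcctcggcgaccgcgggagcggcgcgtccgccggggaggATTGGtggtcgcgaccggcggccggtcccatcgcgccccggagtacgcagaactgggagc
Ephb3: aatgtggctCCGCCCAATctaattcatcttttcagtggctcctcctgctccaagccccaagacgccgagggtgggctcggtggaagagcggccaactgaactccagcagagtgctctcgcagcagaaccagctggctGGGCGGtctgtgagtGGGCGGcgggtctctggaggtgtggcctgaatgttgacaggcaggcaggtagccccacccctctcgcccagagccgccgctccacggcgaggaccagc
Ephb4: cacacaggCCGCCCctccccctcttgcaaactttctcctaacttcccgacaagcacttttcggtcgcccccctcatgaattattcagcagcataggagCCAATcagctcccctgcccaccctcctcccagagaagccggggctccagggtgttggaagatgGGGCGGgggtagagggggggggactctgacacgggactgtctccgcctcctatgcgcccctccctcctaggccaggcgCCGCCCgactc
The *Efnb2* window held 1 CCAAT match and no GC box, while those of *Ephb3* and *Ephb4* each held 3 GC boxes and 1 CCAAT match, and in *Ephb3* the first GC box and the CCAAT match overlap. TATAAA and TGANTCA were found in none of these 3 windows. Among 33469 RefSeq promoter windows of the same length, 30.5% held GGGCGG, 34.0% CCAAT, 12.9% TATAAA and 6.34% TGANTCA. The *Efnb2* window was 80.4% G and C with 43 CpG dinucleotides, at percentiles 99.0 and 99.3 of all windows. Those of *Ephb3* and *Ephb4* were alike at 64.4% G and C, with 14 and 12 CpG dinucleotides. The matches describe these windows only, and no binding was measured.

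*Efnb1*, which encodes ephrin-B1 (ENSRNOG00000006877, X chromosome of rn6, 68891227 to 68904038, plus strand), was the most abundant member in every type. Its TPM was 96.0, 97.2 and 92.6 in the Fb-Epn libraries, 96.7, 103.4 and 101.6 in the Fb-Par libraries and 65.6, 66.8 and 67.6 in the Fb-Skn libraries, from 1037 to 1800 counts per library. Every nerve-derived library was above every skin-derived one, while Fb-Epn and Fb-Par overlapped. The log2 fold change was 0.38 ± 0.042 (SE) for Fb-Epn against Fb-Skn (adjusted p = 2.8e-06, edgeR) and 0.44 ± 0.042 (SE) for Fb-Par against Fb-Skn (adjusted p = 4.5e-07, edgeR). Between the nerve-derived types it was -0.07 with a 95% interval from -0.155 to 0.0209 (adjusted p = 0.2, edgeR), which did not pass the threshold. Only *Mir3573*, with 0 counts in all 9 libraries, overlaps *Efnb1*, and no other member overlaps a gene of the files.

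*Efnb2*, which encodes ephrin-B2, a ligand known for marking arterial endothelium (ENSRNOG00000014648, chromosome 16, 86631064 to 86675049, plus strand), was highest in Fb-Par. Its TPM was 13.3, 15.4 and 12.5 in Fb-Epn, 44.0, 43.9 and 43.3 in Fb-Par and 15.6, 16.1 and 17.2 in Fb-Skn. The Fb-Par libraries stood far above the other 6, and those of Fb-Epn were all slightly below those of Fb-Skn. The fitted level in Fb-Epn was 3.16-fold lower than in Fb-Par (log2 fold change -1.66 ± 0.072 SE, adjusted p = 8.1e-11, edgeR), and that in Fb-Par was 2.42-fold higher than in Fb-Skn (1.28 ± 0.071 SE, adjusted p = 1.1e-09). Fb-Epn was lower than Fb-Skn by a smaller step (-0.39 ± 0.077 SE, adjusted p = 6.6e-04, edgeR). That smaller step fell below the threshold when limma was run on deposited TPM or FPKM (adjusted p = 0.018 to 0.031, against a range of 4.1e-05 to 0.031 over its 21 alternatives that test for any change).

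*Efnb3*, which encodes ephrin-B3 (ENSRNOG00000010320, chromosome 10, 56161432 to 56167426, minus strand), was at the limit of detection. It had 7 counts in all 9 libraries together, at most 2 in a library, and 0 in 3 libraries. Its TPM was 0, 0 and 0.063 in Fb-Epn, 0, 0.13 and 0.064 in Fb-Par and 0.058, 0.067 and 0.066 in Fb-Skn, where 3 counts, the upper limit that a count of 0 allows, correspond to 0.168 to 0.201. No type could be told from another at this depth, and no fold is given. The ligands with measurable RNA were therefore *Efnb1* and *Efnb2*.

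*Ephb3* (ENSRNOG00000031801, chromosome 11, 83527962 to 83546674, minus strand) encodes a receptor known, with EphB2, for positioning cells in the intestinal crypt, and showed the largest fold difference of any tested member between Fb-Epn and Fb-Skn. Its TPM was 18.2, 16.2 and 18.7 in Fb-Epn, 33.9, 30.0 and 34.3 in Fb-Par and 49.9, 54.9 and 49.5 in Fb-Skn. The 3 types formed separate steps that rose from Fb-Epn through Fb-Par to Fb-Skn. Its fitted level in Fb-Epn was 3.21-fold lower than in Fb-Skn (log2 fold change -1.68 ± 0.071 SE, adjusted p = 5.4e-11, edgeR). The 2 steps were of like size, -0.88 ± 0.073 (SE) for Fb-Epn against Fb-Par (adjusted p = 1.1e-07) and -0.80 ± 0.067 (SE) for Fb-Par against Fb-Skn (adjusted p = 1.2e-07, edgeR).

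*Ephb4* (ENSRNOG00000045952, chromosome 12, 22393330 to 22417980, minus strand), whose product is the main receptor of ephrin-B2 and is known for marking venous endothelium, ran the other way. Its TPM was 74.5, 68.3 and 70.4 in Fb-Epn, 54.1, 53.2 and 52.0 in Fb-Par and 33.5, 35.6 and 33.3 in Fb-Skn. The types again formed separate steps without overlap, with Fb-Epn highest and Fb-Skn lowest. The log2 fold change was 0.92 ± 0.048 (SE) for Fb-Epn against Fb-Skn (1.89-fold higher, adjusted p = 6.2e-10, edgeR), 0.43 ± 0.046 (SE) for Fb-Epn against Fb-Par (adjusted p = 2.2e-06) and 0.49 ± 0.049 (SE) for Fb-Par against Fb-Skn (adjusted p = 7.8e-07).

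*Ephb2* (ENSRNOG00000012531, chromosome 5, 155022493 to 155204456, minus strand), the receptor named above for sorting Schwann cells, varied least among the 4 tested receptors. Its TPM was 21.0, 23.0 and 22.5 in Fb-Epn, 17.0, 16.4 and 14.6 in Fb-Par and 19.0, 19.1 and 18.8 in Fb-Skn, so Fb-Par was the lowest type and the TPM of the types did not overlap. Fb-Par was lower than Fb-Epn (log2 fold change of Fb-Epn against Fb-Par 0.48 ± 0.068 SE, adjusted p = 3.1e-05, edgeR) and lower than Fb-Skn (-0.40 ± 0.069 SE, adjusted p = 1.9e-04). The latter fell below the threshold with limma on deposited TPM or FPKM (adjusted p = 0.013 to 0.021, against 9.1e-06 to 0.021 over its 21 alternatives). Fb-Epn and Fb-Skn did not pass the count test in spite of their separate TPM, with a log2 fold change of 0.09 and a 95% interval from -0.0552 to 0.232 (adjusted p = 0.28, edgeR). Their TPM ratio sits above the fitted fold because the median tested gene was 0.129 higher in Fb-Epn relative to Fb-Skn on the log2(TPM + 1) scale than in the count model, and 0.135 higher in Fb-Par, so TPM ratios to Fb-Skn below and above carry that offset.

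*Ephb6* (ENSRNOG00000014367, chromosome 4, 70903253 to 70918514, plus strand) encodes a receptor without kinase activity that can pair with other Eph receptors, and was the lowest of the tested members. Its TPM was 3.72, 3.38 and 4.50 in Fb-Epn, 1.88, 2.18 and 1.13 in Fb-Par and 7.54, 5.69 and 6.61 in Fb-Skn, from only 23 to 167 counts per library. The types did not overlap, with Fb-Skn highest and Fb-Par lowest. *Ephb6* was 4.24-fold lower in Fb-Par than in Fb-Skn (log2 fold change -2.08 ± 0.216 SE, adjusted p = 1.2e-06, edgeR) and was the only DE gene among the members. The value crossed the limit of -2 without Fb-Par replicate 3 (-1.85), without Fb-Skn replicate 1 (-1.96) and with library sizes alone as the scaling (-1.99), and with limma on deposited TPM or FPKM (-1.91 to -1.19), while its adjusted p stayed under the threshold in each. Fb-Epn was higher than Fb-Par (1.17 ± 0.223 SE, adjusted p = 5.2e-04) and lower than Fb-Skn (-0.92 ± 0.198 SE, adjusted p = 0.0012, edgeR), and the latter call was lost without Fb-Skn replicate 1 (-0.80, adjusted p = 0.011, within a range of 5.7e-05 to 0.023 over its 21 alternatives).

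*Ephb1* (ENSRNOG00000007865, chromosome 8, 110376954 to 110813000, minus strand), a receptor known from the nervous system, was at the limit of detection like *Efnb3*. It had 5 counts in all, 3 of them in Fb-Epn replicate 3 and 1 each in a library of Fb-Par and of Fb-Skn, and 0 in the other 6 libraries. The TPM of those libraries was 0.13, 0.043 and 0.045, where 3 counts correspond to 0.114 to 0.137. Its level could not be compared between types at this depth.

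**Figure D1:**
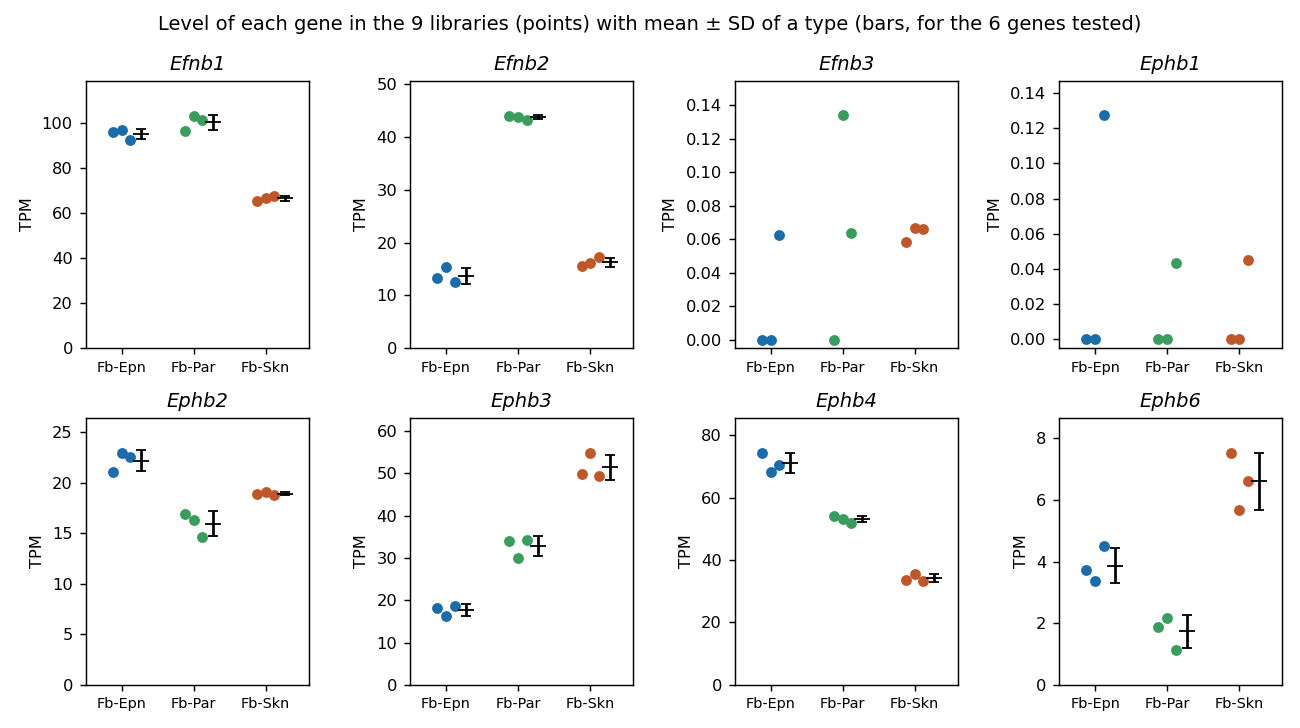
TPM of the 8 genes (vertical axes, each with its own scale from 0) in each of the 3 libraries of a type (points), with the mean ± SD of a type as bars for the 6 genes tested. *Efnb2* stands out in Fb-Par at 43.3 to 44.0, *Ephb3* rises and *Ephb4* falls from Fb-Epn to Fb-Skn, and *Efnb3* and *Ephb1* stay at or below 0.13.

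Of the 6 members tested, 5 were called between Fb-Epn and Fb-Skn, 2 higher and 3 lower in Fb-Epn, where 43.9% of all tested genes were called (23% higher, 20.9% lower). Between Fb-Epn and Fb-Par 5 were called, 3 higher and 2 lower in Fb-Epn, against a background of 38.8% (20.2% higher, 18.6% lower). Between Fb-Par and Fb-Skn all 6 were called, 3 higher and 3 lower in Fb-Par, against 45.6% (23.2% higher, 22.4% lower). *Efnb2*, *Ephb3*, *Ephb4* and *Ephb6* were called in all 3 comparisons, as were 16.5% of tested genes. The only DE call, *Ephb6*, stands beside 8.54% of tested genes that were DE genes between Fb-Par and Fb-Skn, and no member was a DE gene in Fb-Epn against Fb-Skn (8.44% of tested genes) or Fb-Epn against Fb-Par (6.48%).

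The TPM of the compared types did not overlap for 6, 5 and 6 members in the same order, as they did not for 61.4%, 57.3% and 61.7% of tested genes. The median log2 fold change of the 6 members was -0.15, 0.18 and 0.02, beside -0.0028, -0.00018 and -0.012 over all tested genes, so the members moved in mixed directions around a median close to that of all genes. These 6 genes are the members that passed the expression filter, not all 8.

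**Figure D2:**
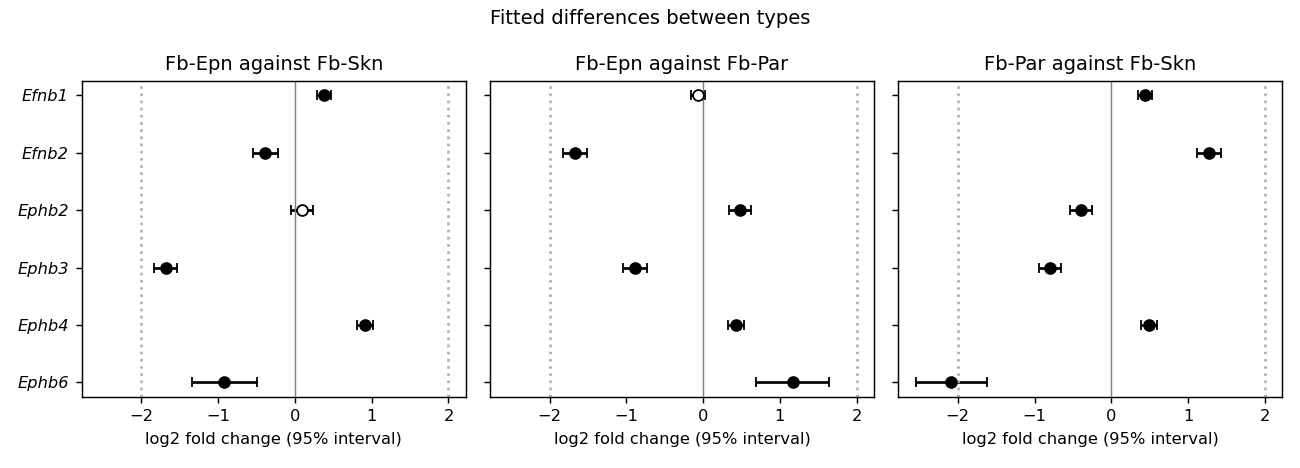
Log2 fold change (horizontal axis) of the 6 tested members in the 3 comparisons, each with its 95% interval from the edgeR fit, filled where the adjusted p was under 0.01 and open where it was not, with dotted lines at -2 and 2. Only *Efnb1* in Fb-Epn against Fb-Par and *Ephb2* in Fb-Epn against Fb-Skn are open, and only *Ephb6* in Fb-Par against Fb-Skn (-2.08) lies past a dotted line.

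Within each type the members kept a clear order, since TPM is per length. In Fb-Epn the order from high to low was *Efnb1*, *Ephb4*, *Ephb2*, *Ephb3*, *Efnb2* and *Ephb6*, in Fb-Par *Efnb1*, *Ephb4*, *Efnb2*, *Ephb3*, *Ephb2* and *Ephb6*, and in Fb-Skn *Efnb1*, *Ephb3*, *Ephb4*, *Ephb2*, *Efnb2* and *Ephb6*. No neighbours in these orders overlapped between libraries. *Efnb3* and *Ephb1* came last in each, and overlapped with each other in Fb-Epn and Fb-Par. Among the tested genes *Efnb1* lay at percentile 86.9 of mean TPM for Fb-Epn, 87.5 for Fb-Par and 82.1 for Fb-Skn, and in the same order *Ephb4* at 82.2, 76.2 and 68.3, *Ephb3* at 47.6, 64.6 and 77.3, and *Ephb6* at 16.6, 9.67 and 29.1.

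The summed TPM of the 3 ligands was highest in Fb-Par at 144.4 ± 3.35, followed by Fb-Epn at 109.0 ± 3.72 and Fb-Skn at 83.0 ± 1.82 (SD, n = 3), and these ranges did not overlap. *Efnb1* made up 87.4% ± 0.937 of it for Fb-Epn, 69.6% ± 0.794 for Fb-Par and 80.3% ± 0.577 for Fb-Skn (SD, n = 3). *Efnb2* supplied nearly all of the rest, with a share of 30.3% ± 0.835 in Fb-Par. The ratio of *Efnb1* to *Efnb2* TPM was thus 6.99 ± 0.585 in Fb-Epn and 4.10 ± 0.148 in Fb-Skn, but 2.30 ± 0.0881 in Fb-Par (SD, n = 3).

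The receptors behaved otherwise, in that their summed TPM differed little while its make-up changed. Sums set against Fb-Skn carry the offset given above (0.129 for Fb-Epn and 0.135 for Fb-Par, log2(TPM + 1) scale). The rank of Fb-Skn in the receptor sum therefore depends on the TPM scaling and is not settled here. Summed receptor TPM was 114.9 ± 3.49 in Fb-Epn and 111.2 ± 3.76 in Fb-Skn, with 103.6 ± 2.86 in Fb-Par (SD, n = 3), and the ranges of Fb-Epn (110.9 to 117.4) and Fb-Skn (108.2 to 115.4) overlapped, with those of Fb-Par (101.8 to 106.9) below both. *Ephb4* was 61.8% ± 1.45 of the sum for Fb-Epn, 51.3% ± 0.89 for Fb-Par and 30.7% ± 0.196 for Fb-Skn, and *Ephb3* was 15.4% ± 0.762, 31.6% ± 2.06 and 46.2% ± 1.19 (SD, n = 3). The share of *Ephb2* stayed between 14.3% and 20.7% in all 9 libraries, and that of *Ephb6* was 6.86% or less. *Ephb4* was therefore 4.02 ± 0.238 times *Ephb3* in Fb-Epn, 1.63 ± 0.132 times in Fb-Par, and 0.664 ± 0.0136 times in Fb-Skn (SD, n = 3).

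The ratio of ligand sum to receptor sum was 1.40 ± 0.069 in Fb-Par, above 0.95 ± 0.058 in Fb-Epn and 0.747 ± 0.0334 in Fb-Skn (SD, n = 3), and no library of a type reached the range of another. These shares and ratios are descriptions without a test, and an exact two-sided permutation test of 3 against 3 libraries could not give a p under 0.1.

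**Figure D3:**
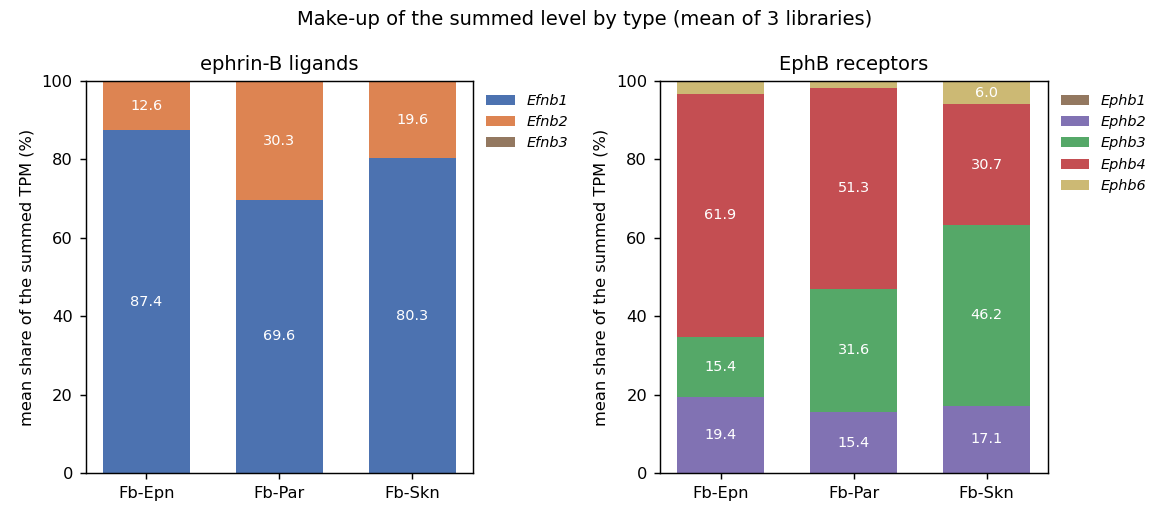
Mean share (vertical axis, % of summed TPM, n = 3 libraries) of each ligand in the ephrin-B sum and of each receptor in the EphB sum, as 1 stacked bar per type. The *Efnb2* share is largest in Fb-Par at 30.3%, and *Ephb3* takes over from *Ephb4* as the largest receptor share in Fb-Skn.

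The proteins that carry or end ephrin-B and EphB signals were taken from 4 lists of 46 genes, of which 40 were tested. In Fb-Epn against Fb-Skn 27 were called, 19 higher and 8 lower in Fb-Epn, beside the background of 43.9%. In Fb-Epn against Fb-Par 16 were called (9 higher, 7 lower) and in Fb-Par against Fb-Skn 23 (17 higher, 6 lower), beside 38.8% and 45.6%. The medians of their log2 fold changes were 0.24, -0.02 and 0.15. The shares of 43.9%, 38.8% and 45.6% are also the background for the counts of each single list below, marker lists included. Forward signalling lay near them, with 53.3%, 33.3% and 46.7% called in the same order.

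Of the 15 tested adaptors and kinases of forward signalling, 8 were called in Fb-Epn against Fb-Skn (5 higher, 3 lower), 5 in Fb-Epn against Fb-Par (2 higher, 3 lower) and 7 in Fb-Par against Fb-Skn (6 higher, 1 lower), and none was a DE gene. *Ryk*, a kinase-dead receptor that binds EphB2 and EphB3, had the highest mean over the 9 libraries, although *Crk* exceeded it in Fb-Epn. The TPM of *Ryk* was 139.1 ± 5.66 in Fb-Epn, lower than 181.8 ± 3.89 in Fb-Par or 178.3 ± 7.77 in Fb-Skn (SD, n = 3). The Fb-Epn level was below that of Fb-Skn (log2 fold change -0.50, adjusted p = 4.3e-07, edgeR) and that of Fb-Par (-0.38, adjusted p = 9.3e-06).

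The 7 tested exchange factors and regulators of small GTPases, through which EphB receptors reshape actin, gave 6 calls in Fb-Epn against Fb-Skn (5 higher, 1 lower), 2 in Fb-Epn against Fb-Par (1 higher, 1 lower) and 4 in Fb-Par against Fb-Skn, all higher in Fb-Par. *Tiam1*, an exchange factor for Rac that binds EphB receptors and ephrin-B1, showed the largest change of any partner. Its TPM was 7.88, 9.15 and 8.74 in Fb-Epn, 5.92, 6.85 and 7.26 in Fb-Par and 0.577, 0.969 and 0.742 in Fb-Skn, so every nerve-derived library was far above the skin-derived ones. The log2 fold change was 3.36 ± 0.171 (SE) for Fb-Epn against Fb-Skn (adjusted p = 4.7e-10, edgeR) and 2.98 ± 0.174 (SE) for Fb-Par against Fb-Skn (adjusted p = 1.9e-09), while Fb-Epn against Fb-Par was not called (0.38, adjusted p = 0.027). *Git1*, a scaffold that regulates Arf and Rac, was the most abundant of this list at 62.1 ± 0.905 TPM for Fb-Epn, 60.9 ± 0.775 for Fb-Par and 44.6 ± 3.43 for Fb-Skn (SD, n = 3).

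Among 9 tested PDZ and adaptor partners of the ligand tail, 5 were called in Fb-Epn against Fb-Skn (2 higher, 3 lower), 3 in Fb-Epn against Fb-Par (all higher) and 4 in Fb-Par against Fb-Skn (1 higher, 3 lower). *Sdcbp*, which encodes syntenin-1, a PDZ protein that binds the tail of ephrin-B, was the most abundant at 348.2 ± 16.2 TPM for Fb-Epn, 339.7 ± 4.53 for Fb-Par and 225.1 ± 2.74 for Fb-Skn (SD, n = 3). Like *Efnb1* it was higher in both nerve-derived types (log2 fold change against Fb-Skn 0.49 in Fb-Epn, adjusted p = 6.7e-08, and 0.44 in Fb-Par, adjusted p = 1.9e-07, edgeR). *Pard6b*, which encodes a polarity protein of the Par complex, was a DE gene in the other direction, from 0.403 ± 0.0948 in Fb-Epn and 0.517 ± 0.305 in Fb-Par to 2.33 ± 0.660 TPM in Fb-Skn (SD, n = 3). Relative to Fb-Skn the log2 fold change was -2.65 for Fb-Epn (adjusted p = 7.0e-05, edgeR) and -2.31 for Fb-Par (adjusted p = 1.8e-04).

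Proteases, ubiquitin ligases and phosphatases that cleave or switch off these proteins gave 8 calls of 9 tested in Fb-Epn against Fb-Skn (7 higher, 1 lower), 6 in Fb-Epn against Fb-Par (3 higher, 3 lower) and 8 in Fb-Par against Fb-Skn (6 higher, 2 lower). *Mmp9*, a gelatinase, was low in Fb-Par at 0.811, 0.535 and 1.02 TPM, against 6.95, 6.77 and 7.997 in Fb-Epn and 6.23, 4.20 and 4.76 in Fb-Skn. Its log2 fold change was 3.19 ± 0.241 (SE) for Fb-Epn against Fb-Par (adjusted p = 4.3e-08, edgeR) and -2.82 ± 0.246 (SE) for Fb-Par against Fb-Skn (adjusted p = 1.8e-07). *Mmp2*, the other gelatinase and the most abundant partner, was likewise lowest in Fb-Par, at 915.1 ± 14.4 TPM against 1516 ± 7.13 in Fb-Epn and 1529 ± 13.0 in Fb-Skn (SD, n = 3). *Ptprj*, a receptor tyrosine phosphatase, in Fb-Par exceeded its Fb-Skn level (10.2 ± 0.812 against 2.13 ± 0.392 TPM, SD, n = 3, log2 fold change 2.12, adjusted p = 1.6e-09, edgeR) and so did its level in Fb-Epn (7.998 ± 0.708 TPM, log2 fold change 1.78, adjusted p = 1.5e-08). *Rhbdl2*, a rhomboid protease known to cleave ephrin-B3, had 0 counts in all 9 libraries.

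**Figure D4:**
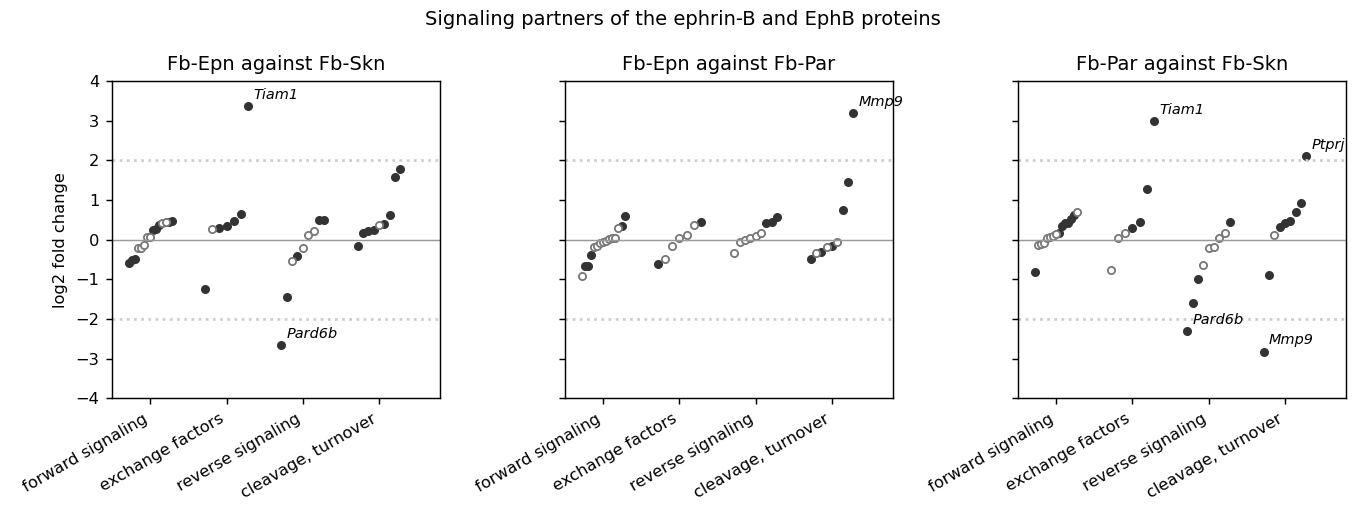
Log2 fold change (vertical axis) of the 40 tested signalling partners in the 3 comparisons, by list, with filled points where the adjusted p was under 0.01, open points where it was not and dotted lines at -2 and 2. Past a dotted line lie *Tiam1* (3.36) and *Pard6b* (-2.65) in the left panel, *Mmp9* (3.19) in the middle panel and *Tiam1*, *Ptprj*, *Pard6b* and *Mmp9* in the right panel.

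Members were also set beside the genes whose log2(TPM + 1) ran most like theirs over the 9 libraries, as Pearson's r without a test, since libraries of a type share their level. For *Efnb2* these were *Slc35f1* (r = 0.9986), *Spsb1* (0.9953) and *Reep3* (0.9947), and 332 tested genes had r above 0.95. For *Ephb3* they were *Cybrd1* (0.9948), *Hdac11* (0.9948) and *Emp2* (0.9946), with 174 genes above 0.95. For *Ephb4* they were *C1qa* (0.9969), *Adamtsl4* (0.9963) and *Plau* (0.9960), with 454 above 0.95, and for *Efnb1* *Fgf5* (0.9968), *Plxnb2* (0.9968) and *Fmnl2* (0.9962), with 701.

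*Ephb2* had fewer close matches, 79 genes above 0.95 led by *Ube2t* (0.9751), *Ska3* (0.9743) and *Dner* (0.9740). For *Ephb6*, *Rps20* (0.9864), *Tomm20* (0.9853) and *Mrpl17* (0.9845) led 98 genes. With log2(TPM + 0.1) in place of log2(TPM + 1), only 1 of the 3 genes was kept for *Ephb2* and for *Ephb6*. The largest negative r between members was that of *Ephb3* and *Ephb4*, -0.96.

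Markers of other cell types were also measured, some of which fibroblasts may express themselves. The paper immunolabelled its cultures for a Schwann cell and an endothelial protein, and whether other cells were present was not tested here. Fewer cells of a type and less RNA per cell cannot be told apart in such bulk samples. Fibroblast markers were high throughout, with a summed TPM of 27110 to 31710 over 7 genes led by *Col1a1*, and none was at 0 in any library. The 7 macrophage markers, led by *Cd68* in the nerve-derived types and by *Cd14* in skin, summed to 279.7 to 318.1 TPM in Fb-Epn, 73.5 to 75.9 in Fb-Par and 24.3 to 25.2 in Fb-Skn, the same order of types as *Ephb4* and the reverse of *Ephb3*. All 7 were called in every comparison, each in that order. *C1qa*, a complement gene made mostly by macrophages, had a mean TPM of 82.8 for Fb-Epn, 30.8 for Fb-Par and 6.68 for Fb-Skn. It headed the 454 tested genes with r above 0.95 to *Ephb4*, but its r of 0.9969 was close to those of *Adamtsl4* (0.9963) and *Plau* (0.9960).

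The 6 pericyte markers, led by *Mcam*, summed to 84.7 to 85.6 TPM in Fb-Epn, 394.6 to 410.9 in Fb-Par and 160.2 to 173.2 in Fb-Skn, which is the order of *Efnb2*, and *Rgs5* and *Kcnj8* were at 0 in all Fb-Skn libraries. Of the 6 genes, 6 were called higher in Fb-Par than in skin, and 4 were called lower in Fb-Epn than in Fb-Par, but between Fb-Epn and Fb-Skn 4 were called higher and 2 lower in Fb-Epn. The 13 Schwann cell markers, led by *S100b* in Fb-Epn and Fb-Par and by *Cnp* in Fb-Skn, summed to 330.9 to 338.8 in Fb-Epn, 406.0 to 410.6 in Fb-Par and 62.8 to 68.0 in Fb-Skn, the order of *Efnb1*, although *Efnb1* was not called between the nerve-derived types. Among the markers at 0 were *Sox10*, *Erbb3*, *Cdh19* and *Gfap* in all Fb-Skn libraries and *Mal* in all 9. Of the 12 tested, 10 were called higher in Fb-Epn and 11 in Fb-Par than in skin, and between the nerve-derived types 9 were lower and 1 higher in Fb-Epn.

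Endothelial markers, of interest because *Efnb2* and *Ephb4* mark arteries and veins, summed to 38.6 to 43.0 TPM in Fb-Epn, 31.8 to 32.3 in Fb-Par and 25.8 to 35.6 in Fb-Skn over 9 genes led by *Egfl7*. Of the 6 tested, 5 were called higher and 1 lower in Fb-Epn against Fb-Skn, 2 higher in Fb-Epn against Fb-Par, and 3 higher and 1 lower in Fb-Par against Fb-Skn. The genes of the list did not share an order of types. *Egfl7* was highest in Fb-Skn (29.3 TPM, against 19.7 in Fb-Epn and 14.7 in Fb-Par), *Tek* and *Erg* in Fb-Par (10.2 and 6.18 TPM), and *Cdh5* and *Tie1* in Fb-Epn (1.78 and 4.19 TPM). *Tek* and *Erg* were not called between Fb-Epn and Fb-Par (adjusted p = 0.065 and 0.66, edgeR). *Vwf*, *Kdr*, *Emcn* and *Cldn5* were also highest in Fb-Epn, at mean TPM up to 0.622. The means of *Cdh5*, *Tie1*, *Vwf*, *Kdr* and *Emcn* ran in the order of *Ephb4*. *Cdh5* and *Cldn5* were at 0 in all Fb-Skn libraries. The 6 perineurial markers, led by *Slc2a1*, summed to 156.5 to 162.5 for Fb-Epn, 41.7 to 47.4 for Fb-Par and 75.8 to 84.3 for Fb-Skn. This is the order of *Ephb2*, although *Ephb2* was not called between Fb-Epn and Fb-Skn. *Slc2a1* made up most of the sum (mean TPM 144.7, 34.9 and 69.0 in the same order), and *Itgb4* shared its order. *Cldn1*, *Krt19* and *Cldn22*, below the filter at mean TPM up to 0.324, were highest in Fb-Par. *Lypd2* was at 0 in all 9 libraries. Of the 2 tested, both were called lower in Fb-Par than in either other type, and 1 was higher in Fb-Epn than in skin. The 6 keratinocyte markers, led by *Krt10*, summed to 4.78 or less in every library. The part of these markers' sources in the levels of the members was not tested.

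**Figure D5:**
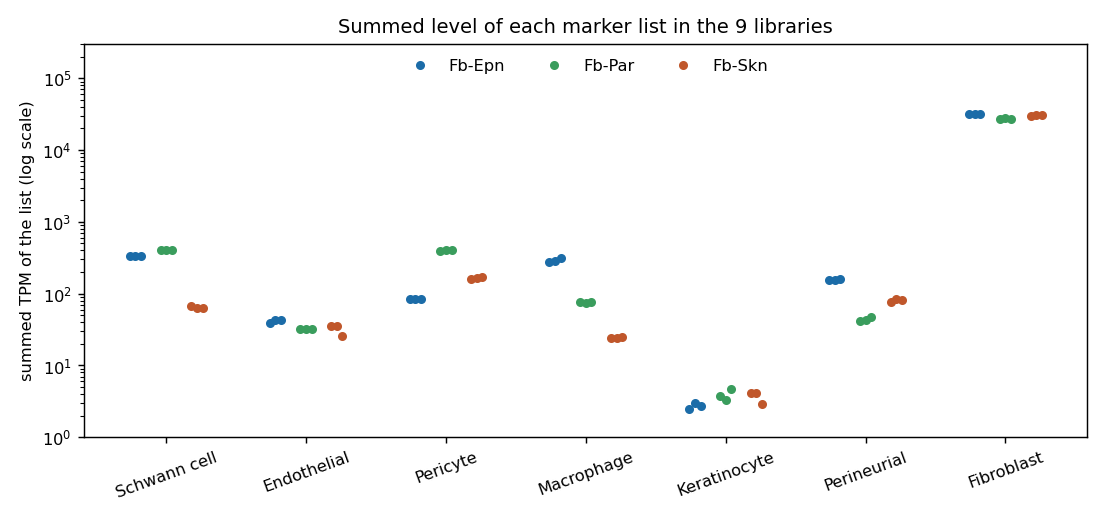
Summed TPM (vertical axis, log scale) of 7 cell type marker lists in each of the 9 libraries, coloured by type. Macrophage markers fall from 279.7 or more in Fb-Epn to 25.2 or less in Fb-Skn, pericyte markers are highest in Fb-Par, and Schwann cell markers are lowest in Fb-Skn.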

How the data were processed

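Epineurial, parenchymal and skin fibroblasts were measured by RNA-seq in 3 samples each, with types and replicate numbers taken from the sample labels. The authors isolated poly(A) RNA, made directional libraries and sequenced paired ends of 150 bp. According to the submitters' processing notes the tools were FastQC 0.11.7, Trimmomatic 0.38, HISAT2 2.1.0 and featureCounts 1.6.3, with genome rn6. The annotation release and the strand setting of the counting are not given in the sources used here. The authors deposited raw counts per gene, the same genes as TPM, and FPKM.

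The deposited counts were fitted with R 4.3.3 and edgeR 4.0.16 (TMM factors 0.955 to 1.03, default expression filter, quasi-likelihood F test, all 9 libraries in 1 model), and p-values were adjusted within each comparison over all 13273 tested genes. The paper's text names no count test and defines DE genes by a p under 0.01 with a log2 fold change above 2. Here the cutoff of 0.01 was applied to the adjusted p of this fit, which is stricter than the unadjusted p of the same fit. It was not stricter than the paper's calls. It gave 1120 DE genes in Fb-Epn against Fb-Skn and 860 in Fb-Epn against Fb-Par, more than the paper reports. Deposited TPM gave levels, shares and r. Deposited FPKM served only as an alternative. Alternatives also used DESeq2 1.42.0, limma 3.58.1 on log2 values with pseudocounts of 1 and 0.1, other scalings, filters and thresholds, glmTreat against a log2 fold change of 1, a replicate block, and leaving out each library. The fits were tested on simulated counts. Tables and figures were made with Python 3.11.15, pandas 2.3.3 and matplotlib 3.10.9.

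The members and lists were chosen with earlier results of these data known, and the 4 promoter motifs after the results were seen. Named genes were all 8 members, partners that were DE genes, the most abundant gene of each list, markers at 0, and for each tested member with at least 100 counts in its highest type the 3 genes with the highest r. Markers at 0 in only some types and *Cdh5*, *Tek*, *Erg*, *Tie1*, *Cnp*, *Cd14* and *Crk* were named after their values were seen. So were *Vwf*, *Kdr*, *Emcn*, *Itgb4*, *Cldn1*, *Cldn22* and *Krt19*. Promoter sequences came from RefSeq (GRCr8). No protein sequence was used here, and a few listed markers were not analysed or are not reported here by name.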

Additional observations from a re-analysis of the deposited data

How the results depend on the processing

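The 18 member differences had 396 alternatives. These include the main fit read at an adjusted p of 0.05, which is not a refit and cannot reverse a difference or lose a call. They also include glmTreat, which keeps the log2 fold changes of the main fit and so cannot reverse a difference either. Of the 396, 376 kept their direction and side of the threshold, 20 kept the direction but lost the call, and 0 changed direction. When edgeR's glmTreat tested against a log2 fold change of 1 in place of 0, the members called fell from 5 to 1 in Fb-Epn against Fb-Skn, from 5 to 1 in Fb-Epn against Fb-Par and from 6 to 2 in Fb-Par against Fb-Skn, and the partners called fell from 27 to 4, from 16 to 1 and from 23 to 6, since this null asks for a larger change. With limma on log2(TPM + 0.1), 3 members were called in Fb-Epn against Fb-Skn, where *Efnb2* (-0.25, adjusted p = 0.03) and *Ephb6* (-0.76, adjusted p = 0.023) were lost, and the cause was not tested. Fits without 1 library each gave 4 to 5, 5 to 5 and 6 to 6 members and 22 to 25, 13 to 18 and 22 to 23 partners. Same-numbered libraries of different types did not deviate together (r from -0.0804 to 0.0198 over genes), so no pairing by number was seen. These r values cannot show which samples shared a rat. The replicate block gave 5, 5 and 6 members and 23, 14 and 23 partners. It changed no member's call. Depth limits *Efnb3* and *Ephb1*, which with a filter of at least 1 count gave adjusted p from 0.54 to 1, and *Ephb6*, whose log2 fold change in Fb-Par against Fb-Skn ranged from -2.27 to -1.85 over the libraries left out and was -1.19 with limma on log2(FPKM + 1).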

Other observations

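The other class of Eph proteins, ephrin-A ligands and EphA receptors, was measured for 13 genes, of which 9 were tested. In Fb-Epn against Fb-Skn 4 were called (2 higher, 2 lower), in Fb-Epn against Fb-Par 3 (2 higher, 1 lower) and in Fb-Par against Fb-Skn 4 (1 higher, 3 lower), beside backgrounds of 43.9%, 38.8% and 45.6%. The highest mean over the 9 libraries was that of *Epha7*, a receptor known from axon guidance, which 5 genes of the family exceeded in Fb-Epn. Its TPM was 4.18, 3.23 and 3.55 in Fb-Epn, 8.58, 9.92 and 12.03 in Fb-Par and 26.7, 29.4 and 28.9 in Fb-Skn. It rose in the same order of types as *Ephb3*, with a log2 fold change of -3.10 ± 0.132 (SE) for Fb-Epn against Fb-Skn (adjusted p = 5.9e-11, edgeR), -1.47 ± 0.140 (SE) for Fb-Epn against Fb-Par (adjusted p = 5.9e-07) and -1.63 ± 0.117 (SE) for Fb-Par against Fb-Skn (adjusted p = 2.0e-08).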
